A study of Mus musculus with 3 samples.

Results

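The Cadm family of the mouse has 4 genes, Cadm1 to Cadm4, which encode cell adhesion molecules. They were examined here as places of NKX2-5 binding in the embryonic heart. Every peak whose midpoint lay within 200 kb of the body of 1 of the 4 genes was taken, which gave 12 of the 9859 peaks called in 2 libraries. The S1 list held 6 of them among 4418 peaks, and the S4 list held 6 among 5441 peaks (mean 6 ± 0, SD, n = 2 libraries). Of the 12 peaks, 10 formed 5 regions that were bound in both libraries, of 2546 such regions in the genome, and all 5 were near Cadm1. The other 2 peaks had no partner in the other library. Cadm3 had 1 peak in S4 and none in S1, and Cadm2 and Cadm4 had no peak in either library.

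Both libraries came from hearts of wild-type E11.5 embryos of the Parkes strain. After fixation and sonication, DNA held by NKX2-5 was collected with an antibody (chromatin immunoprecipitation, ChIP) and sequenced. The labels name 1 further library, an Input made without selection for NKX2-5, which was not analysed here. There was 1 condition and 1 tissue, so no group could be tested against another. The paper's figure captions describe S1 and S4 as 2 experiments. Neither the captions nor the labels say whether S1 and S4 were made from separate pools of hearts. The spread between the libraries may therefore be technical. Whole hearts mix muscle, endocardium and other cells, and a peak cannot be assigned to 1 of them.

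CADM proteins, also called SynCAMs or nectin-like molecules, cross the cell membrane once and carry immunoglobulin-like domains outside the cell, with which they bind each other or a relative on the neighbouring cell. Their short tails hold on to the scaffold inside, through cytoskeletal linkers and membrane-associated guanylate kinases. CADM1, also known as TSLC1 or Necl-2, is found on many epithelia and in the nervous system and is known as a tumour suppressor. CADM2 (Necl-3), CADM3 (Necl-1) and CADM4 (Necl-4) are best known for joining axons to one another and to the glia that wrap them. NKX2-5 is a homeodomain transcription factor that is needed for the heart to form. MEIS1, a homeodomain factor of the TALE class, binds DNA in cardiac progenitors, and the study asked where NKX2-5 binds in the developing heart and whether the sites of both factors coincide. At an earlier stage the paper also tested by ChIP several enhancer regions with a motif shared by both factors, including a region at the Cadm1 locus. It reports MEIS enrichment in the anterior heart field and NKX2-5 enrichment in the heart for all of them. The main text does not give the position of the Cadm1 region.

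The sequences of all 5 shared Cadm1 regions and of both peaks without a partner are printed because they show how the NKX2-5 and MEIS1 letters are arranged in the bound DNA. Each is read 5′ to 3′ on the plus strand of NCBIM37, the assembly also called mm9. For a region, the 300 bases with the most matches of AAGTG and TGACA inside the stretch covered by both peaks are given. For a peak without a partner, the midpoint and 100 bases on either side are given. Capitals mark AAGTG, the core of the NKX2-5 motif, TGACA, the core of the MEIS1 motif, their reverse complements CACTT and TGTCA, and the longer match GTGNTGACA, in which GTG, the end of the first core, is followed by any base and the second core.
Cadm1, 175 kb upstream of the start (chr9:47163105-47163404): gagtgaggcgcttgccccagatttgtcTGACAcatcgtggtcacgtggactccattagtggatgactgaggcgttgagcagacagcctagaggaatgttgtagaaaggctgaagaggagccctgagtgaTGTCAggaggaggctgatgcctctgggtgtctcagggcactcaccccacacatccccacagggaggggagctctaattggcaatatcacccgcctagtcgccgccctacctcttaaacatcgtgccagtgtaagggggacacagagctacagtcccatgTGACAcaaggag
Cadm1, 153 kb upstream of the start (chr9:47184876-47185175): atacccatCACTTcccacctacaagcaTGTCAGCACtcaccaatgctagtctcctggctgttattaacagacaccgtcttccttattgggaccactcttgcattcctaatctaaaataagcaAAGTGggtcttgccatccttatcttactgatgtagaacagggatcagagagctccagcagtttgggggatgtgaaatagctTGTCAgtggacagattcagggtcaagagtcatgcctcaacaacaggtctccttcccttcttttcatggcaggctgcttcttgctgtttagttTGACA
Cadm1, 123 kb upstream of the start (chr9:47214719-47215018): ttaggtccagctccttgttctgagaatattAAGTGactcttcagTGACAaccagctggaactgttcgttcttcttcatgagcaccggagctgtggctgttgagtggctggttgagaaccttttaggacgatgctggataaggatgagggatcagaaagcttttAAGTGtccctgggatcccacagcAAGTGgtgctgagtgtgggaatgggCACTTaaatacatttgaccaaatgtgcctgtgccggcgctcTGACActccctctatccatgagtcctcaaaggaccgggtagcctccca
Cadm1, 116 kb upstream of the start (chr9:47222741-47223040): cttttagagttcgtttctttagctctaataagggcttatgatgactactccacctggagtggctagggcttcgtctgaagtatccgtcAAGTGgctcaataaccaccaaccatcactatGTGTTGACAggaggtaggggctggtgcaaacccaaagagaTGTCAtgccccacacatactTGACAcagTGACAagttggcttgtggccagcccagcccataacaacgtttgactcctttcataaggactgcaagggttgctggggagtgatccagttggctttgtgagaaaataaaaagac
Cadm1, 248 kb downstream of the start, intron 1 (chr9:47586487-47586786): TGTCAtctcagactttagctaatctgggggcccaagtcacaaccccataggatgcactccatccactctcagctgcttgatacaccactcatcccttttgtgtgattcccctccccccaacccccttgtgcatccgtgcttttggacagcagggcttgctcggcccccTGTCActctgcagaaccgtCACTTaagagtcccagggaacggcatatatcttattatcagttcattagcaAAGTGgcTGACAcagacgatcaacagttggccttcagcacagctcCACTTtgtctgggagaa
Cadm1, 204 kb downstream of the start, intron 1, S1 only (chr9:47542444-47542644): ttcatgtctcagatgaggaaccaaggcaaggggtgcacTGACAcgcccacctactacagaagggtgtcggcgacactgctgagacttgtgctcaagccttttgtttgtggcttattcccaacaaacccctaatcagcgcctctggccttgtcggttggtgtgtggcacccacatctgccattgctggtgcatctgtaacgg
Cadm3, intron 1, S4 only (chr1:175291795-175291995): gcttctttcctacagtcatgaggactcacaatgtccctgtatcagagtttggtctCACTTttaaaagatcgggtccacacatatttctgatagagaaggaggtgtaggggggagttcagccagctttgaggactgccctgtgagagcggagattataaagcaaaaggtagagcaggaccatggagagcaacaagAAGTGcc

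Cadm1 (ENSMUSG00000032076.11) lies on the plus strand of chromosome 9 at 47338256-47665720, a body of 327 kb. Of the 6 S1 peaks and 5 S4 peaks assigned to it (5.5 ± 0.707, SD, n = 2 libraries), 5 in each list overlapped a peak of the other list by at least 1 bp. Its window held 8.25 S1 peaks and 6.87 S4 peaks per Mb, beside 1.73 and 2.13 per Mb over the sequenced genome. Over all 22350 protein-coding genes of the annotation, 0.832% had at least 5 regions bound in both libraries within 200 kb, and 37.7% had at least 1. Cadm1 was thus among 186 genes with at least as many shared regions. These shares are over genes of all lengths, and a longer body makes the window wider. Within 200 kb of its start Cadm1 had 4 shared regions. The share of all genes with as many around their start was not counted, so this count has no background.

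The Cadm1 window held no other coding gene. The coding gene before it, 4931429L15Rik, ended 1210.2 kb away, and the coding gene after it, Fam55b, lay 460.37 kb beyond its end. From the start of Fam55b the 5 shared regions were 575 to 998 kb distant. The position of the peaks does not show which gene the bound DNA acts on.

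Of the shared regions, 4 lay upstream of the gene in intergenic DNA, and the other was within the gene. The region nearest to the start was 116 kb upstream, with a peak at chr9:47222226-47223040 in S1 and at chr9:47222325-47223084 in S4. Its score was 1595 in S1 and 1136 in S4, where the score is the negative log10 of the caller's p-value in that library, multiplied by 10. It ranked 49 of 4418 in S1 and 161 of 5441 in S4, in the top 1.11% and the top 2.96% of the lists. It was the highest-scoring Cadm peak of each library.

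The region 153 kb upstream came next, at chr9:47184562-47185489 in S1 and chr9:47184393-47185450 in S4. It scored 1019.76 in S1 and 790.25 in S4, with rank 136 in the first list and 329 in the second. Both regions therefore stood far above the middle of their lists, whose median scores were 212 in S1 and 223 in S4.

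Between them, 123 kb upstream and 7.56 kb from the nearest region, the peak at chr9:47214705-47215537 in S1 and chr9:47214706-47215788 in S4 scored 404 and 476, at ranks 748 and 789. The outermost region lay 175 kb upstream, at chr9:47163011-47163406 in S1 and chr9:47162967-47163729 in S4, and was weak in both libraries, at 158 and 163. It ranked 3563 in S1 and 4265 in S4, within the top 80.6% and 78.4%. The 4 upstream regions lay within 59.5 kb. They thus ran from the top 1.11% to the top 80.6% of the S1 list, and from the top 2.96% to the top 78.4% of the S4 list. Of all 2546 shared regions, 71 (2.79%) were part of a group of as many within as short a span.

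The shared region inside the gene lay in intron 1 in every annotated transcript that covers it, 248 kb downstream of the start, at chr9:47586455-47586886 in S1 and chr9:47586397-47587215 in S4. Its score of 210.5 in S1 was near the median of that list, at rank 2223. In S4 it scored 274, above the median, at rank 1935 and in the top 35.6%. The sixth S1 peak, chr9:47542338-47542750, was also in intron 1, 204 kb downstream of the start. It had a score of 143.92, just over the lowest score in its list (140.01), ranked 4217 and had no partner in S4, where the nearest peak was 44.3 kb away.

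**Figure D1:**
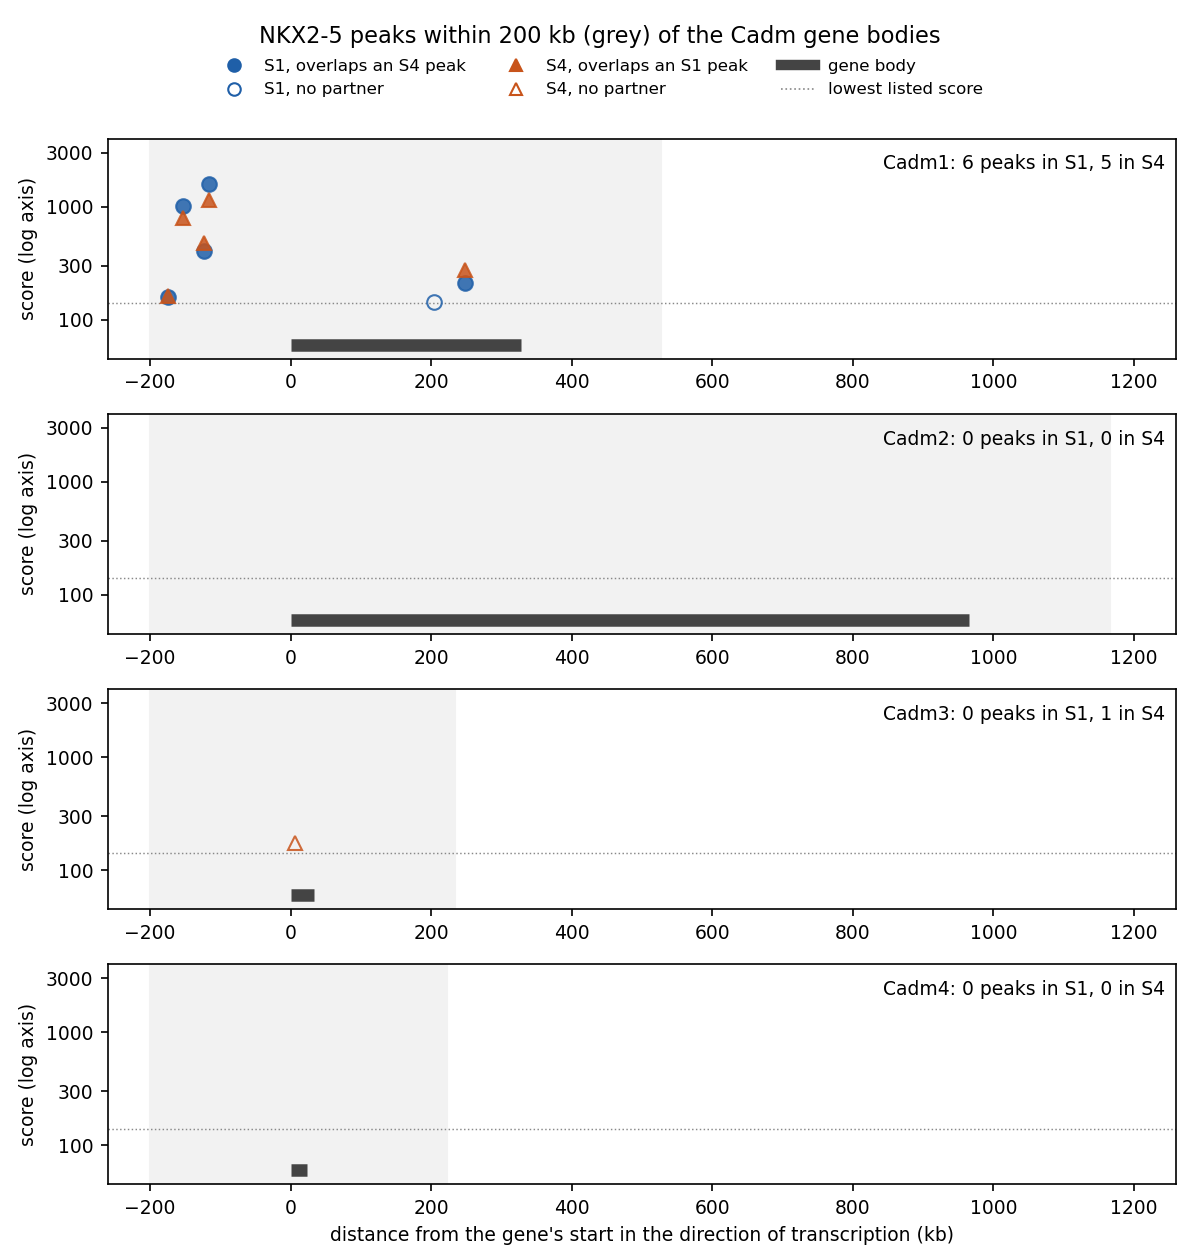
Score of each peak (vertical, log axis) by its distance from the start of the gene in kb (horizontal) for Cadm1 to Cadm4, with the window in grey, the gene body as a bar, S1 as circles, S4 as triangles, open symbols for peaks without a partner and a dotted line at the lowest listed score. The 4 upstream regions of Cadm1 hold a circle and a triangle each, the Cadm2 and Cadm4 windows are empty, and Cadm3 holds a single open triangle.

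The libraries ordered the 5 shared regions alike, with the region 116 kb upstream first, followed by those 153 kb upstream, 123 kb upstream, in intron 1 and 175 kb upstream. The scores are not scaled between libraries. On the log2 scale the ratio of the S4 score to the S1 score was -0.49 and -0.37 for the 2 strongest regions and 0.05, 0.24 and 0.38 for the regions 175 kb upstream, 123 kb upstream and in intron 1. Over all 2601 S1 peaks with a partner the median ratio was 0.18 and the quartiles were -0.25 and 0.61, so the strongest regions lay under the lower quartile. Among the 142 such peaks that scored at least 1000 in S1, the median was 0.00 and the quartiles were -0.41 and 0.24, and only the region 116 kb upstream lay under the lower of these. With 1 value per library these ratios have no error.

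**Figure D2:**
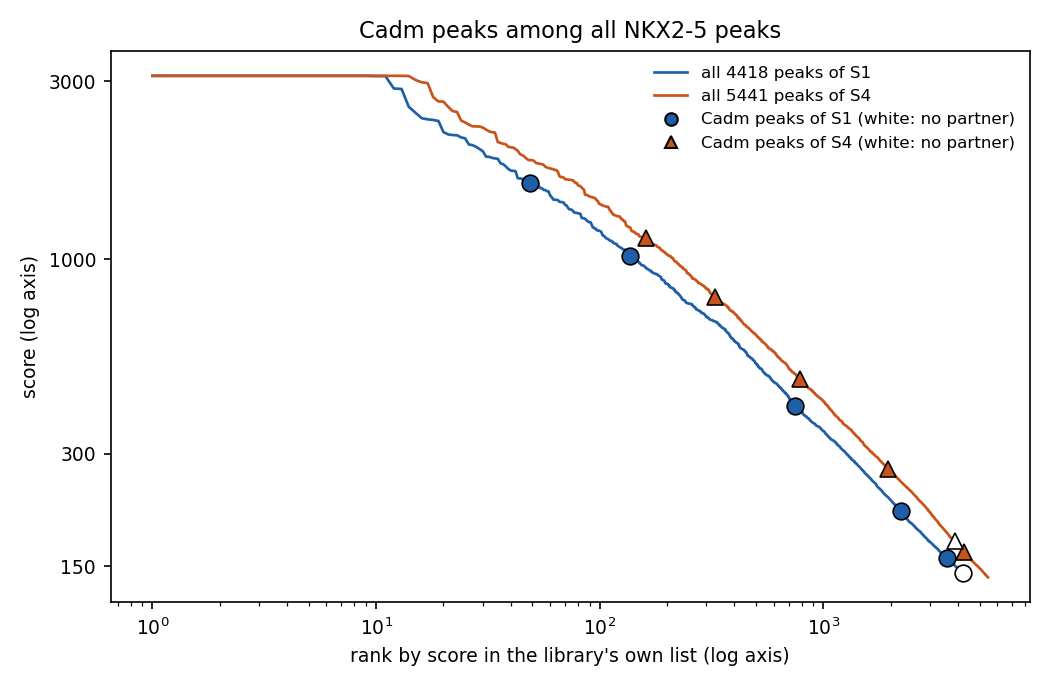
Score (vertical, log axis) by rank (horizontal, log axis) for all peaks of S1 and S4 as lines, with the Cadm peaks as circles (S1) and triangles (S4), white where there was no partner. The highest Cadm peaks are at ranks 49 and 161, and the peaks without a partner are at rank 4217 of 4418 in S1 and 3858 of 5441 in S4.

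Overlap between the libraries was 5 of 6 Cadm peaks in S1 and 5 of 6 in S4, or 83.3% with an exact Clopper-Pearson interval of 35.9 to 99.6% that covers counting error only. Over the whole lists, 58.9% of S1 peaks overlapped an S4 peak and 47.0% of S4 peaks overlapped an S1 peak. Both shares are inside the interval. It treats the 6 peaks of a list as independent, although 4 of them lay within 59.5 kb, and the shares are not matched for score. A difference from the rest of the list was not tested, and none is claimed. The Cadm peaks were 396 to 928 bp wide in S1 (median 623.5 bp) and 654 to 1083 bp in S4 (median 791 bp). The lists as a whole had median widths of 625 and 783 bp, close to those of the Cadm peaks. In each of the 5 shared regions the stretch covered by both peaks was 396 to 889 bp long, and the midpoints of the 2 peaks were 71 to 140 bp apart.

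Just outside the Cadm1 window there was a gap. The next shared region lay 561 kb upstream, scoring 721 in S1 and 936 in S4, and another lay at -1113 kb (489.96 and 299). With these, 7 shared regions fell between the coding neighbours of Cadm1. Neither of the outer regions was among the 12 peaks described here.

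Cadm2 (ENSMUSG00000064115.7) is the longest of the 4 genes, with a body of 965 kb on the minus strand of chromosome 16 at 66655666-67621153. It had the widest window, 1.37 Mb, and no peak in either library. Among all protein-coding genes 31.3% had no peak within 200 kb. Among the 200 genes with a body of at least 500 kb the share was 25%, so an empty window was not rare among them. The share among genes as long as Cadm2 was not counted. The nearest peaks were 2287 kb from the body in both libraries, with a score of 328 in S1 and 219.75 in S4.

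The empty stretch was far longer than the window. Between the last peak of either library on one side of the Cadm2 start and the first on the other there were 5890.2 kb (chr16:64369080-70259231). Of the 7229 intervals between neighbouring peaks in the genome, 19 (0.263%) were at least as long, and 0.679% of the bases of the Cadm2 interval are unsequenced in the assembly. Long intervals cover more of the genome than their number shows, and these 19 held 171 Mb, or 6.71% of all bases between peaks. Coding genes are sparse here, with Vgll3 792 kb before Cadm2 and Speer2 2236 kb after it. How well reads could be placed in this interval was not tested.

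Cadm3 (ENSMUSG00000005338.6), on the minus strand of chromosome 1 at 175264385-175297826, is 33.4 kb long. Its S4 peak at chr1:175291569-175292222 was 654 bp wide, lay in intron 1, 5.93 kb downstream of the start, and had a score of 175. That put it at rank 3858 of 5441, within the top 70.9% of the S4 list. With only scores of at least 200 kept, Cadm3 had no peak in either library. The nearest S1 peak was 553 kb away. The same bases lie in intron 1 of Aim2, a sensor of DNA in the cytosol that is encoded on the opposite strand. Darc, the next coding gene, is 0.751 kb from Cadm3. In all, 11 other coding genes overlapped the Cadm3 window, so the peak is not assigned to Cadm3 by position alone.

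Cadm4 (ENSMUSG00000054793.7), on the plus strand of chromosome 7 at 25267042-25289558, is the shortest, with a body of 22.5 kb. It had no peak, and 17 other coding genes shared its window, with Plaur 6.15 kb before it and Zfp428 2.55 kb after it. The nearest S4 peak was 307 kb away and scored 169.8, and the nearest S1 peak was 468 kb away and scored 211. The peak-free interval around the Cadm4 start was 797 kb, and 10.3% of all intervals were at least as long, with 56.3% of the bases between peaks. For Cadm3 it was 552 kb (16.0% of intervals, 66.9% of bases) and for Cadm1 it was 319 kb (27.6% and 80.6%).

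Motifs were searched as exact matches on both strands, within 100 bp of the centre of each shared stretch. The paper searched instead with motif matrices around peak summits. The shares given here are therefore not frequencies of the motifs it describes. AAGTG was found in 2 of the 5 Cadm1 regions, TGACA in 4, and either in 4. Of all 2546 shared regions 64.0% held AAGTG, 64.3% held TGACA and 84.6% held either. In windows of the same length 2 kb away the shares were 39.4%, 40.1% and 62.7%. The longer NKX2-5 core TNAAGTG, which contains AAGTG, was found in 1 Cadm1 region, beside 32.4% of all shared regions and 11.4% of the distant windows. AAGTGACA, in which the cores overlap, was in none of the Cadm1 regions and in 2.44% of all shared regions.

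GTGNTGACA, which contains TGACA, was in none of the Cadm1 windows at this length, while 9.47% of all shared regions and 0.864% of the distant windows held it. It was present farther out, in the 2 strongest Cadm1 regions. In the region 153 kb upstream it read GTGCTGACA on the minus strand at chr9:47184903-47184911. This match was centred 99 bp from the midpoint and crossed the edge of the window. In the region 116 kb upstream the match read GTGTTGACA on the plus strand at chr9:47222860-47222868, centred 182 bp from the midpoint. TCAAGTG, a match of the longer NKX2-5 core, preceded it at chr9:47222827-47222833. Within 200 bp of the midpoint TNAAGTG was in 3 of the 5 Cadm1 regions, 45.9% of all shared regions and 21.2% of the distant windows. Of the 138 shared regions that scored at least 1000 in S1, 58.0% held TNAAGTG. With 200 bp on each side, 2 of the 5 Cadm1 regions held GTGNTGACA, beside 13.7% of all shared regions, 1.83% of the distant windows and 26.1% of the 138 shared regions that scored at least 1000 in S1.

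The other 3 regions held the cores in other arrangements. Over the whole shared stretch, the region 123 kb upstream had 5 AAGTG, of which 4 were TNAAGTG, and 6 TGACA. The intron region had 3 of each core, among them a TTAAGTG close to its midpoint. The weakest region, 175 kb upstream, had 3 TGACA and no AAGTG. Stretches of this length hold a core more often than not, since 90.1% of all shared stretches held AAGTG and 87.2% held TGACA. For the longer NKX2-5 core the share was 55.15%, beside 3 of the 5 Cadm1 stretches. How many matches each stretch held was not counted over all shared regions, so the numbers of matches have no background. The stretch 123 kb upstream was 832 bp long, beside a median of 629 bp for all shared stretches.

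Of the 2 peaks without a partner, the S1 peak in Cadm1 had no AAGTG and 1 TGACA within 100 bp of its midpoint, and the S4 peak in Cadm3 had 2 AAGTG and no TGACA. Of all S1 peaks 60.1% held AAGTG and 57.9% held TGACA, and of all S4 peaks 57.8% and 56.1% did. Neither peak held GTGNTGACA in this window. Letters bound by the cardiac cofactors of the GATA and T-box families were searched as well, within 100 bp of the midpoint. AGATAA, the former, was found in the region 153 kb upstream and in 18.8% of all shared regions, and AGGTGT, the latter, in no shared Cadm1 region and in 13.7% of all. Farther from the midpoint the region 153 kb upstream held 1 AGGTGT, and the S4 peak in Cadm3 held 1 in its window. A match shows only that these letters are present, and 5 regions are too few for a share of their own.

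**Figure D3:**
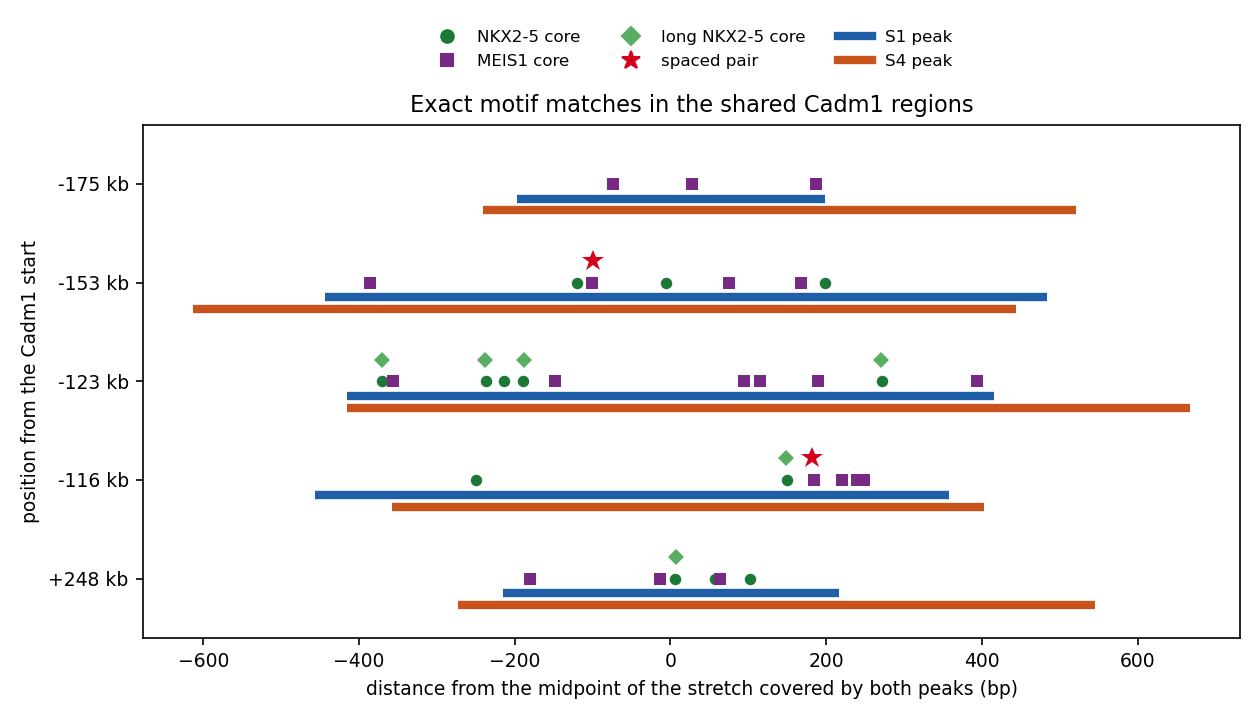
Exact motif matches in the 5 shared Cadm1 regions by distance from the midpoint of the shared stretch in bp (horizontal), 1 row per region, with the extent of the S1 and S4 peaks as bars below. Circles are AAGTG, diamonds TNAAGTG, squares TGACA and stars GTGNTGACA, and the 2 stars are in the regions 153 and 116 kb upstream.

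Among 20 genes of nectins and their relatives, of a CADM1 receptor and of partners of these proteins at the membrane, 4 (20%) had a region bound in both libraries within 200 kb, compared with 37.7% of all coding genes. Another 11 had only peaks that were not shared, as did 6928 of all 22350 coding genes. The remaining 5 (25%) had no peak, beside 31.3% of all coding genes. Of the 5 nectins and relatives, which resemble CADMs in their immunoglobulin-like domains, none had a shared region, and Pvrl1 and Pvrl3 had no peak. Nor did any of the 6 membrane guanylate kinases, of which Mpp1 and Cask had no peak. Sdcbp, encoding the adaptor syntenin, had no peak either.

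Those with shared regions had at most 2. Crtam, the receptor of CADM1 on activated lymphocytes, had 2, the nearest starts to which were those of Hspa8 and Ubash3b. Epb4.1, encoding a linker to the cytoskeleton, had 2, of which 1 was in an intron of Oprd1, scoring 384 in S1 and 478 in S4. The other lay 4.25 kb from the start of Taf12 and within 1 kb of an annotated transcript start. It scored 1619 in S1 and 1843 in S4, above the highest Cadm peak of each library. Epb4.1l1 had 1, inside Dlgap4 and within 1 kb of an annotated transcript start. This region lay 299.7 kb downstream of the Epb4.1l1 start, and the nearest gene start was that of Myl9, 54.8 kb away. It scored only 148 in S1 and 173 in S4. Magi1, a scaffold at cell junctions, had 2, and its own start was the nearest to both. They lay 17.5 kb upstream of that start, scoring 309 in S1 and 174 in S4, and 52.4 kb downstream of it in an intron, scoring 200.6 and 307.

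All 10 genes on a list of cardiac regulators and muscle genes, among them Nkx2-5, Nppa and Myh6, had a shared region, beside 37.7% of all coding genes, with a median of 4.5 and a range of 1 to 7. The list was chosen with results of these data known and is no independent check of the tissue, and Nppa and its neighbour Nppb had the same counts of peaks and shared regions. Cadm1, with 5, was inside that range, and the other 3 Cadm genes, with 0, were below it.

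**Figure D4:**
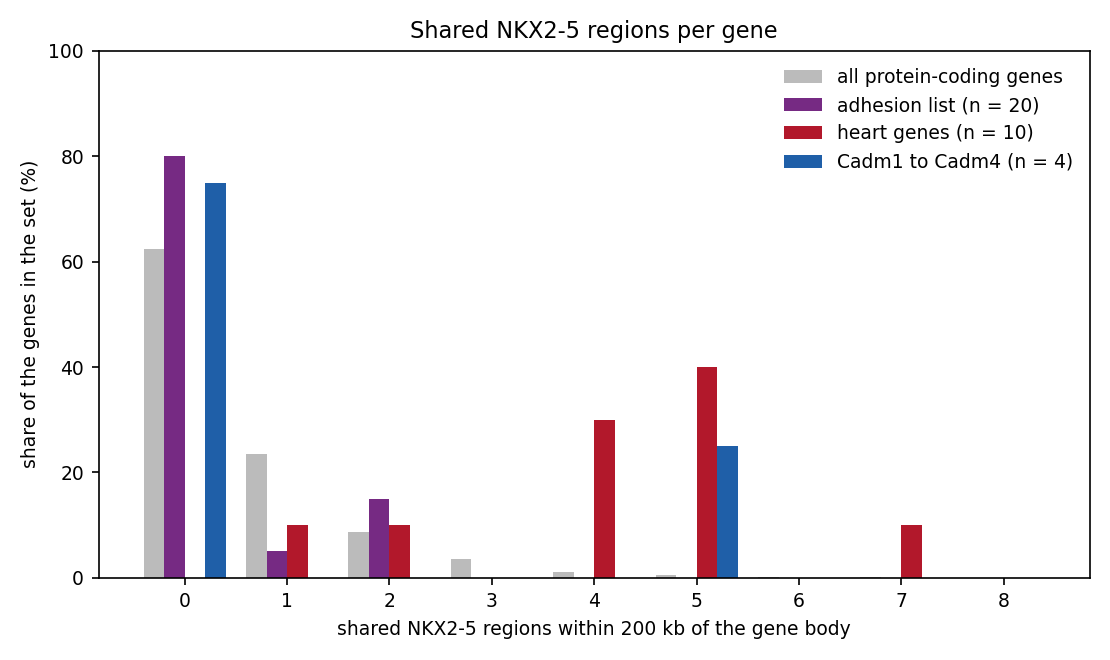
Share of genes in % (vertical) by the number of shared regions within 200 kb of the gene body (horizontal), for all 22350 protein-coding genes, the 20 genes of the adhesion list, the 10 heart genes and Cadm1 to Cadm4. Cadm1 is at 5 with some of the heart genes, and the other 3 Cadm genes are at 0 with most genes of the adhesion list.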

How the data were processed

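NKX2-5 ChIP libraries S1 and S4 were sequenced on a Genome Analyzer and aligned by the authors with BOWTIE (build mm9), and MACS 1.4 called peaks in each library separately. Tool settings and the role of the Input are not given in the sources used here. The score deposited for each peak is read from the values as 10 times the negative log10 of the caller's p-value, unscaled between libraries, with ties at 3100, and the deposited starts and ends are base-pair positions. Without read numbers, sequencing depth is unknown and a score has no interval.

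Groups came from the labels. The members and gene lists were chosen with earlier results of these data known. Named genes are Cadm1 to Cadm4, the coding genes nearest to the shared regions, and, of the adhesion list, the 5 with most shared regions (only 4 had any, and Cask, with 0, was the fifth by symbol) and all without a peak. Other genes are named only as neighbours of a Cadm gene, as genes overlapping a peak or as examples of the heart list. Peaks overlapping by at least 1 bp were shared, and pairs joined by the same peak made 1 region. Gene models were from GENCODE M1 and sequence from NCBIM37, with coordinates counted from 1. The motifs AGATAA and AGGTGT, the window of 200 bp, the scores of at least 1000 and the counts of dense groups and peak-free intervals were chosen after the data were seen. No test was run. Alternatives were windows of 100 and 500 kb, 200 kb around the start, a score of at least 200, stricter and looser overlap (50% of both peaks, midpoints within 150 bp, gaps of up to 500 bp), each library alone and other motif windows. Intervals are exact at a confidence level of 0.95. Scripts ran in Python 3.11.15 with numpy 2.4.6, scipy 1.17.1 and matplotlib 3.10.9, were tested on simulated data, and gave the same overlap counts as bedtools 2.31.1.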

Additional observations from a re-analysis of the deposited data

How the results depend on the processing

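The mean number of Cadm peaks per library was 6 with either library left out (6 to 6). A window of 100 kb lowered it to 2 and the shared regions to 1, because the upstream Cadm1 regions lie beyond 100 kb. The share of Cadm peaks with a partner was 50% in each library with that window, 71.4% with 500 kb and 100% in each with scores of at least 200, where the only Cadm3 peak was lost. Within 200 kb of the gene starts it was 100% in S1 and 80% in S4. With motifs searched within 25 bp of the midpoint, 2 of the Cadm1 regions held AAGTG or TGACA. All 5 did in the window of 200 bp, which was chosen after seeing the data. No paired analysis was possible because there was 1 condition and no test. Unknown depth means that an empty window may hold binding under the lowest listed score.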
